A study of Mus musculus with 6 samples.

Results

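The X-linked miR-322, miR-503, miR-351, miR-542 and miR-450 cluster was followed in 2 classes of newborn mouse cortical neuron. Its assays were taken by name from the deposited raw sheet: every assay called miR-322, miR-503, miR-351, miR-542, miR-450a or miR-450b, alone or with a -3p, -5p or asterisk ending. This gave 12 of the 584 microRNA assays, 10 with mouse and 2 with rat names, in 13 of 734 wells. Card A holds 9 of them and card B holds 3. Subcerebral projection neurons (SCPN), whose axons leave the cortex for the brainstem and spinal cord, gave 3 samples, marked as the test group. Callosal projection neurons (CPN), which join the hemispheres, gave another 3, marked as control. All were purified cell bodies from mice at postnatal day 1, and the labels name no genotype, treatment or strain and do not say whether a group's samples came from separate animals. The spread that the p-values rest on may therefore be technical.

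MicroRNAs of this cluster are cut from neighbouring hairpins and guide silencing complexes to messenger RNAs through their seed, bases 2 to 8 from the 5′ end. The cluster is best known from differentiating muscle and from other cells leaving the cell cycle, where miR-322 and miR-503 repress cell cycle regulators such as Cdc25A and D-type and E-type cyclins. In RefSeq on GRCm38.p6 its 7 genes lie on the minus strand of chromosome X within 6.35 kb. Transcribed in the order Mir322, Mir503, Mir351, Mir542, Mir450-2, Mir450-1 and Mir450b, they run from chrX:53054255-53054349 (Mir322) to chrX:53047997-53048078 (Mir450b). Gaps between neighbours run from 54 to 1035 bp, except 3767 bp between Mir351 and Mir542. The nearest other microRNA gene in that table, Mir106a, is 305 kb away.

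The RefSeq mature sequences below are shown because the seed sets which other microRNAs on the cards are relatives of the cluster. Capitals mark the seed, and all are on the minus strand of chromosome X. The files give no assay sequences, so names without an arm are read here as the 5p arm and names with an asterisk as the 3p arm, as these hairpins are usually named.
miR-322-5p, chrX:53054306-53054327: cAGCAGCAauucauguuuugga
miR-322-3p, chrX:53054269-53054289: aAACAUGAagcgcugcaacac
miR-503-5p, chrX:53054027-53054049: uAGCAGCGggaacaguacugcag
miR-503-3p, chrX:53053987-53054008: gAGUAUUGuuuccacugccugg
miR-351-5p, chrX:53053315-53053338: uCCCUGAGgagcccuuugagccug
miR-542-5p, chrX:53049453-53049474: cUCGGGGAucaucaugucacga
miR-542-3p, chrX:53049415-53049436: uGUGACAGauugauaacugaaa
miR-450a-5p, chrX:53048206-53048227 and chrX:53048339-53048360: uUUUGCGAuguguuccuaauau
miR-450b-5p, chrX:53048044-53048065: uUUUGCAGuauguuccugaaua
The miR-322-5p seed is that of the miR-15 and miR-16 family, which holds back the cell cycle. The miR-503-5p seed differs from it by A8G, counted from the 5′ end, and no other mature sequence of the RefSeq table holds it. The miR-351-5p seed is that of miR-125a-5p and miR-125b-5p. MiR-542-5p shares its seed with 1 sequence of the table, miR-6966-5p. No other sequence there holds the seeds of miR-322-3p, miR-503-3p, miR-542-3p, miR-450a-5p or miR-450b-5p, and the seeds of miR-450a-5p and miR-450b-5p differ by G7A and A8G.

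Each well of a TaqMan card is a quantitative PCR read as a threshold cycle (Ct), and a lower Ct means more template. An assay counted as detected in a sample where its Ct was under 35. By this measure 3 cluster assays were detected in all 6 samples, 3 in 3 to 5 samples, 1 in a single sample and 5 in 0 samples. Of the other 572 assays, 221 (38.6%) were detected in all samples and 206 (36.01%) in 0. The share of undetected cluster assays, 41.7%, was thus near that of the cards. The samples themselves differed in template: averaged over the card A assays detected in every sample, Ct was 21.8 to 27.2 in SCPN and 22.6 to 28.1 in CPN. Replicate 1 of each group had the lowest value. A missing Ct therefore bounds the level most tightly in SCPN replicate 1 and CPN replicate 1.

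**Figure D1:**
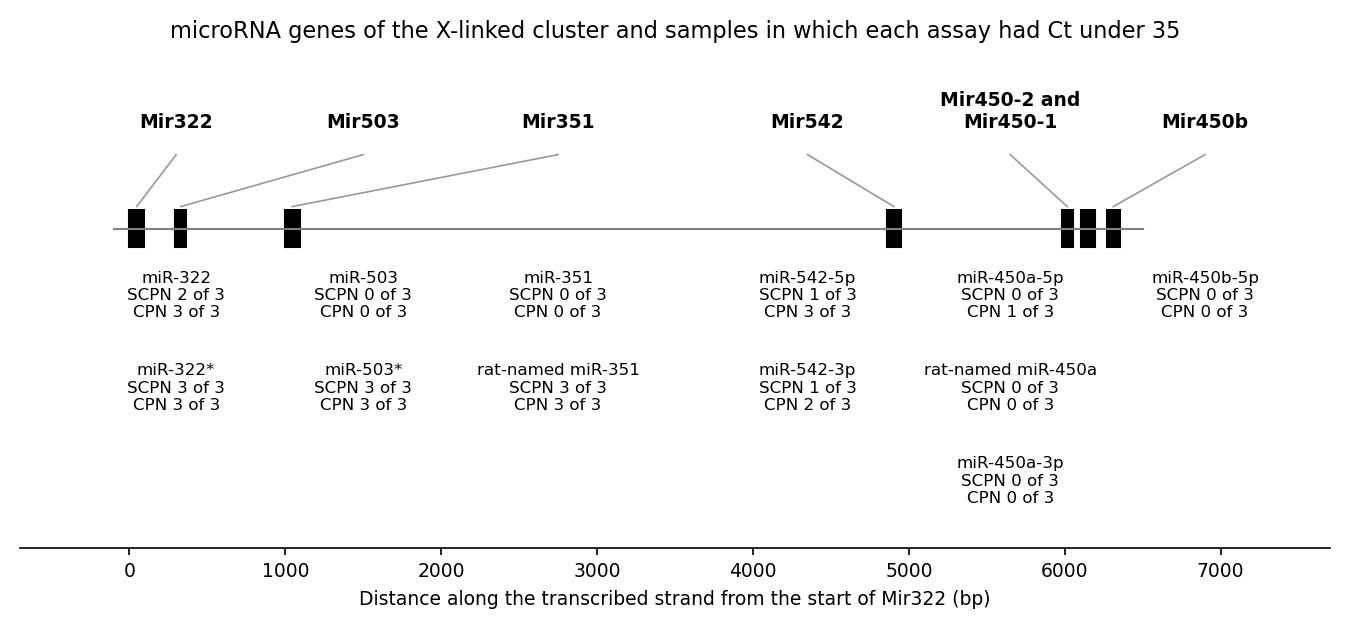
Genes of the cluster drawn to scale by distance from the start of Mir322 (bp, x axis), with the number of SCPN and CPN samples in which each assay had a Ct under 35. Both Mir322 assays were detected in at least 5 samples, 1 of the 4 assays of the Mir450 genes was detected in 1, and the Mir503 and Mir351 genes each have an assay in all 6 samples beside one in 0.

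Mir503 and Mir351 each had an assay detected in every sample beside one detected in none. The card B assay miR-503* gave Ct values of 27.99, 32.93 and 32.98 in SCPN and 28.58, 32.02 and 29.11 in CPN, while miR-503, the arm with the seed near that of miR-16, gave no Ct in any of the 6 samples. Outside the cluster 92 names had both an unmarked and an asterisk assay, and 1 of these, miR-330, had the same split of 6 against 0 samples. For 19 of the 92 the asterisk assay was detected in more samples than the unmarked one. For miR-351, whose seed is that of miR-125, the rat-named assay gave Ct values of 31.23, 33.13 and 34.25 in SCPN and 29.61, 33.69 and 31.26 in CPN. The mouse-named miR-351 assay gave no Ct in any sample. Of the 30 other names with a mouse and a rat assay, 0 had the rat assay in all samples and the mouse assay in 0, 4 had the reverse, and 15 were detected in equally many samples by both. The nearest to miR-351 was miR-758, with the rat assay in 5 samples and the mouse assay in 0.

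The arms of miR-542 were detected in different samples. Ct values for miR-542-5p were 33.13 in SCPN replicate 1, with none in the other SCPN replicates, against 32.39, 33.33 and 33.21 in CPN. For miR-542-3p there was a Ct of 34.08 in SCPN replicate 2 alone, against 27.54 in CPN replicate 1 and 33.70 in CPN replicate 3. In the samples with both arms, the Ct of the 3p arm minus that of the 5p arm was -4.84 in CPN replicate 1 and 0.49 in CPN replicate 3. SCPN replicate 1, the sample with the lowest mean Ct, gave no Ct for miR-542-3p.

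The miR-450 genes at the far end were hardly detected. MiR-450a-5p gave 1 Ct, 33.91 in CPN replicate 1, and miR-450b-5p, miR-450a-3p (in 2 wells) and the rat-named miR-450a gave none.

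**Figure D2:**
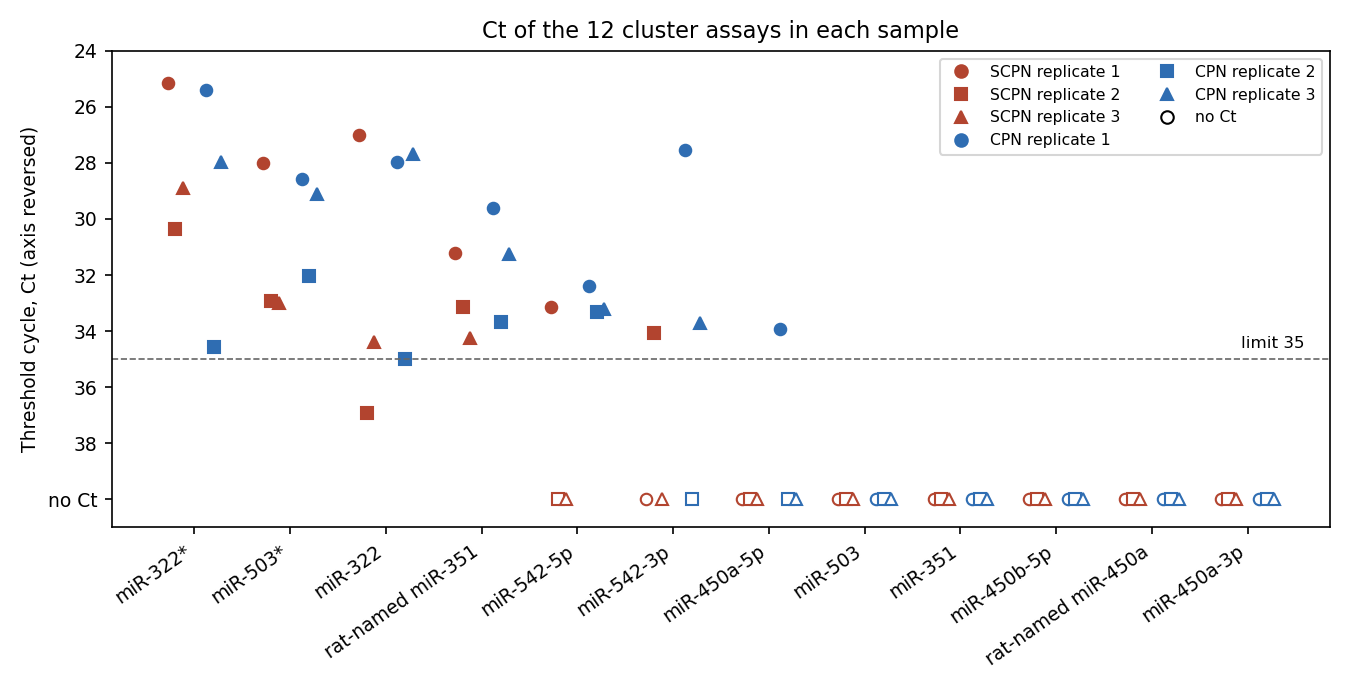
Threshold cycle (y axis, reversed so that more template is higher) of the 12 cluster assays in the 3 SCPN (red) and 3 CPN (blue) samples, with open symbols for wells without a Ct and a dashed line at 35. The 6 assays on the left were tested; of the 6 on the right, miR-450a-5p had 1 Ct and the other 5 had none.

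To compare the groups, Ct values were put on a log2 level scale. Values of 35 or more and missing ones were set to 35, each sample and card was centred on its commonly detected assays, and the values were negated, so higher levels stand for more template. Zero is the average of those assays, 159 for card A and 65 for card B. Assays detected in at least 3 samples were tested, which kept 6 of the 12 cluster assays and 306 in all. Fewer cells with a microRNA and less of it per cell cannot be told apart in such samples.

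MiR-322*, the 3p arm, was the cluster assay with the highest mean level in both groups. It stood at -1.56, -2.27 and -0.49 in SCPN and at -1.15, -5.77 and -1.48 in CPN. Among the 98 assays tested on card B it exceeded 50.0% to 66.3% in SCPN and 26.5% to 63.3% in CPN. All SCPN values lay within the range of the CPN values apart from SCPN replicate 3, the highest, and CPN replicate 2 was far below the rest. The mean difference, SCPN minus CPN, was 1.36 ± 1.26 (log2, SE; limma adjusted p 0.81), and without CPN replicate 2 it was -0.20.

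MiR-503*, the 3p arm of miR-503, had the smallest SD of the tested cluster assays in SCPN (0.24), while in CPN the SD of the rat-named miR-351 (0.71) was below that of miR-503* (0.85). Its levels were -4.39, -4.86 and -4.57 in SCPN and -4.33, -3.22 and -2.64 in CPN. The groups did not overlap, with SCPN lower, though SCPN replicate 1 and CPN replicate 1 lay close together. Such separation with SCPN lower was found for 6.21% of all tested assays, and in either direction for 15%. The difference was -1.21 ± 0.63 (log2, SE), or 0.432-fold, with an unadjusted limma p of 0.0952, an adjusted p of 0.73 and a 95% interval from -2.69 to 0.27. It did not pass the threshold of 0.05.

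MiR-322, the arm with the miR-16 seed, had levels of -5.21 and -7.18 in SCPN replicates 1 and 3 and at most -7.86 in replicate 2, whose Ct of 36.93 was past the limit. In CPN its levels were -5.37, -6.91 and -2.95. CPN replicate 3 was the highest, and the groups overlapped. The difference was -1.67 ± 1.15 (log2, SE; limma adjusted p 0.79). Because the CPN values were all measured and SCPN replicate 2 is an upper bound, this difference is itself an upper bound. Without a Ct limit it was -2.29. Leaving out CPN replicate 3 gave -0.61 and leaving out CPN replicate 2 gave -2.65, so the size rested on single samples.

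Levels of the rat-named miR-351 assay were -9.45, -5.99 and -7.02 in SCPN and -7.01, -5.62 and -6.52 in CPN. SCPN replicate 1 was the lowest, and the other SCPN values lay among those of CPN or just below. In raw Ct, SCPN replicate 1 (31.23) was the earliest SCPN sample and lay within the CPN range of 29.61 to 33.69. Its low level thus rests on the centring of each sample. The difference was -1.10 ± 0.96 (log2, SE; limma adjusted p 0.81), and without SCPN replicate 1 it was -0.12.

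MiR-542-5p stood at -11.35 in SCPN replicate 1 and at most at -7.86 and -7.77 in SCPN replicates 2 and 3, against -9.80, -5.25 and -8.47 in CPN. MiR-542-3p was at most at -13.22 and -7.77 in SCPN replicates 1 and 3 and at -6.94 in replicate 2, against -4.95 and -8.96 in CPN replicates 1 and 3 and at most -6.93 in replicate 2. For miR-542-3p the measured values overlapped. For miR-542-5p the measured SCPN level lay below every CPN level. In raw Ct that value (33.13) lay within the CPN range of 32.39 to 33.33. The order of levels thus rests on the centring, as SCPN replicate 1 had the lowest mean Ct. With bounds for the other SCPN samples it is not known whether the groups overlap. The differences were -1.15 ± 1.41 for miR-542-5p and -2.36 ± 1.75 for miR-542-3p (log2, SE; limma adjusted p 0.83 and 0.79). Because the CPN values of miR-542-5p were all measured and 2 SCPN values are upper bounds, its difference is itself an upper bound; with missing values at the sheet's highest Ct in place of 35 it was -4.35 (unadjusted limma p 0.013, adjusted p 0.39). Without SCPN replicate 1, where the limit lies lowest, the miR-542-3p difference was -0.41, and no SCPN value of miR-542-5p was measured. For miR-542-3p both groups hold values at the limit, so the sign of its difference is not known.

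**Figure D3:**
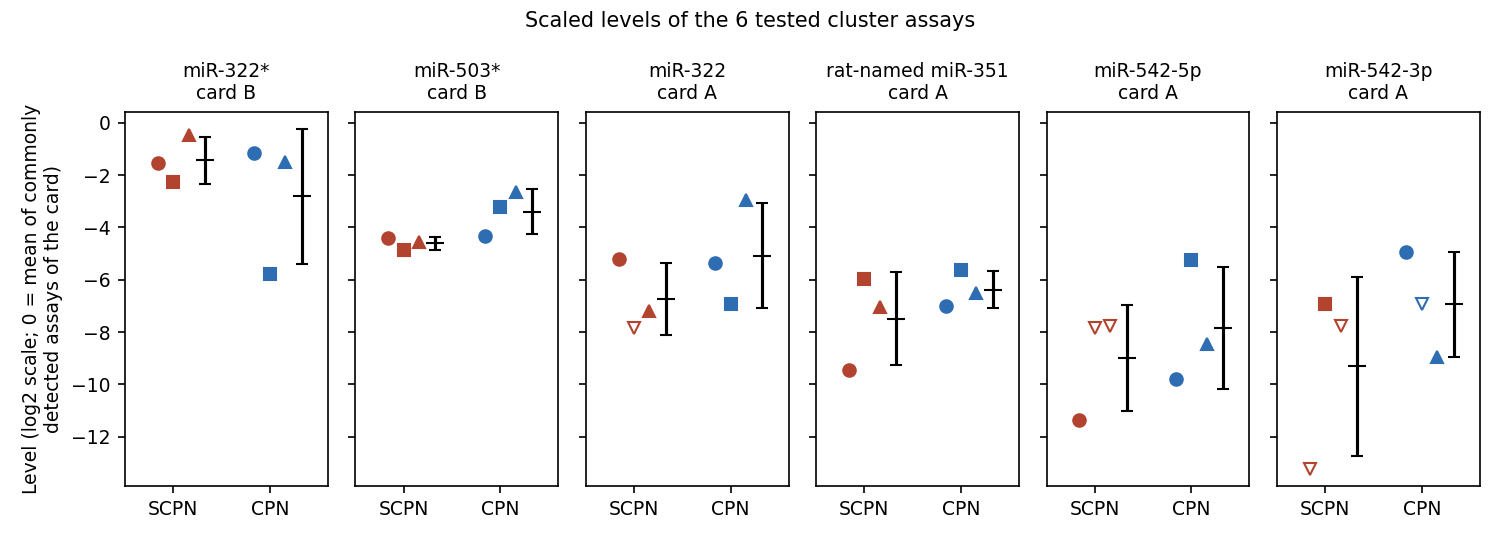
Levels on the log2 scale (y axis; 0 is the average of assays of that card measured in every sample) of the 6 tested assays in SCPN (red, left) and CPN (blue, right); circles, squares and upward triangles are replicates 1, 2 and 3, open downward triangles are upper bounds at the Ct limit, and bars are the mean and SD (n = 3). MiR-503* has no overlap between the groups, with SCPN at -4.86 to -4.39 and CPN at -4.33 to -2.64, and for miR-542-5p any overlap rests on the 2 SCPN upper bounds.

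By mean level the order was the same in SCPN and CPN for the first 4 assays: miR-322*, miR-503*, miR-322 and the rat-named miR-351. In SCPN, miR-322* (-1.44 ± 0.90) stood 3.17 above miR-503* (-4.61 ± 0.24), and miR-503* stood 2.14 above miR-322 (-6.75 ± 1.38, SD, n = 3 each), gaps larger than either SD. From miR-322 down to the rat-named miR-351 (-7.49 ± 1.78) and both miR-542 arms, each gap in SCPN was smaller than the larger SD of the neighbours. In CPN, no neighbouring pair differed by more than the larger of its SDs, from miR-322* at -2.80 ± 2.58 down to miR-542-5p at -7.84 ± 2.34 (SD, n = 3 each). In SCPN the means and SDs of miR-322 and both miR-542 arms include values set to the Ct limit, as do those of miR-542-3p in CPN. These orders set assays of different efficiency, and of 2 cards with a scale each, side by side, so they are descriptions.

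Over the 6 tested assays, 0 passed an adjusted p of 0.05, as did 0 of all 306 (0%). At an unadjusted p under 0.05 there were also 0 cluster assays, against 8.17% of all assays, and with the replicate number as a block again 0. SCPN had the lower mean in 5 cluster assays and the higher mean in 1, miR-322*, against lower means in 54.9% of all assays. The cluster median was -1.18, against -0.08 over all tested assays (log2). It was -0.26 without SCPN replicate 1, with 4 assays lower and 2 higher, against -0.12 over all, and -0.22 with sample weights, against -0.17 over all. The samples and the first steps of scaling are shared, so these members are not independent of each other.

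Of the scalings tried, that of the authors changed the split of the cluster assays by direction. Centring on the median of the commonly detected assays, or quantile normalization, left 5 cluster assays lower and 1 higher, as in the main fit. So did centring without the assays of the 12qF1 region of chromosome 12. With the authors' deposited normalised values, which rest on control RNAs, 17.97% of all assays had the lower mean in SCPN and the median of all assays was 0.87. On that scale 3 cluster assays were lower and 3 higher, with a median of -0.17, and the miR-542-5p value among the higher ones is an upper bound. The authors' deposited table gives a ratio of SCPN to CPN of 3.35 for miR-322*, 0.563 for miR-503*, 0.476 for miR-322 and 1.10 for the rat-named miR-351. For the card B assays the control U6 moved with that scale in 1 sample: on CPN replicate 1 its mean Ct was 16.2 on card B and 9.91 on card A, a gap of 6.33 cycles, while in the other samples the gap was -0.51 to 0.16. Its part in the ratios was not tested.

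**Figure D4:**
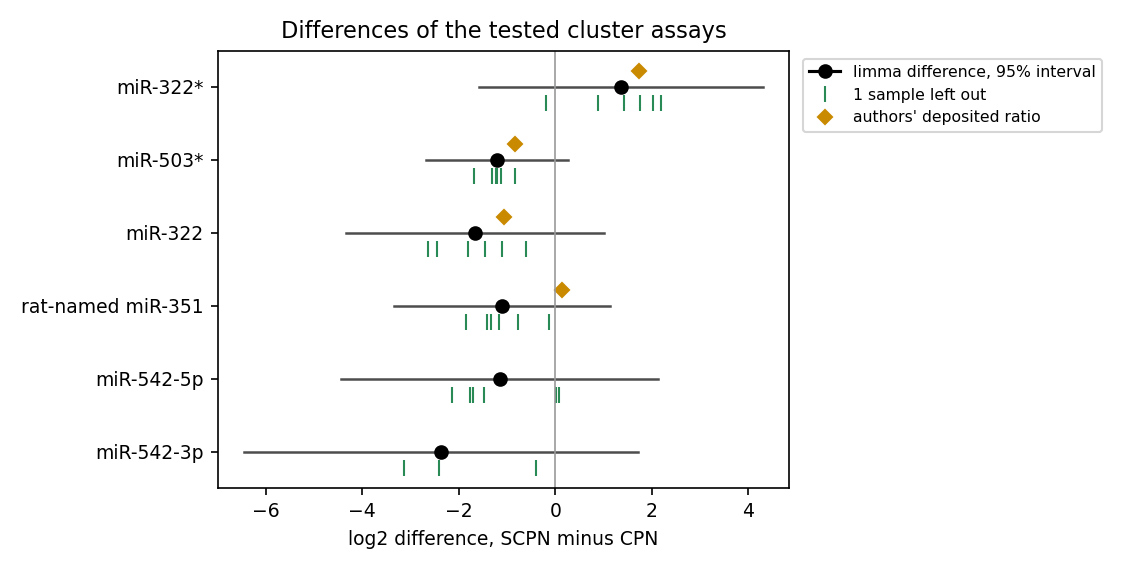
Log2 difference, SCPN minus CPN (x axis), of the 6 tested assays, with the limma estimate and 95% interval (black), the values with 1 sample left out (green ticks) and the log2 of the authors' deposited ratio (diamonds, given for 4 assays). Every interval crosses 0, and miR-322* is the assay on the positive side, turning to -0.20 in 1 of its left-out cases.

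The arms of miR-322 were also set against each other, a comparison chosen after its values were seen. MiR-322 is on card A and miR-322* on card B, each with its own scale, so sample scaling does not cancel between them. The level of miR-322* minus that of miR-322 was 3.65, at least 5.59, and 6.69 in SCPN, and 4.22, 1.14 and 1.47 in CPN. Means were 5.31 ± 1.54 in SCPN and 2.28 ± 1.69 in CPN (SD, n = 3 each), with overlap through CPN replicate 1. The difference of 3.03 had an exact two-sided permutation p of 0.2, where 0.1 is the smallest possible, and on the authors' scale it was 2.17 with an exact p of 0.4. In raw Ct the asterisk arm came earlier in 5 samples, and in CPN replicate 3 it came 0.26 cycles later. In SCPN replicate 2, 1 of the 5, the miR-322 Ct of 36.93 was past the limit. These Ct values also come from 2 cards and from assays that may differ in efficiency.

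The seed relatives miR-16 and miR-125b-5p came many cycles before miR-322 and the rat-named miR-351 on the same card, while miR-15a and miR-497 lay closer to miR-322. MiR-16, with the seed of miR-322, had levels of 5.39, 4.97 and 5.05 in SCPN and 5.70, 5.47 and 6.11 in CPN, and its Ct came 10.6 and 12.2 cycles before that of miR-322 in the SCPN samples with both detected and 9.06 to 12.4 cycles before it in CPN. MiR-16 levels did not overlap, with SCPN lower, a separation found for 6.21% of all tested assays. The miR-16 difference of -0.62 ± 0.54 (log2, SE) had a limma adjusted p of 0.81. Over 22 positions their RefSeq sequences share 12 bases, the seed included.
miR-322-5p, minus strand, chrX:53054306-53054327: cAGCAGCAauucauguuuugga
miR-16-5p, minus strand, chr14:61631936-61631957, and plus strand, chr3:69009918-69009939: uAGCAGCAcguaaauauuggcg
The other relatives were miR-15b (-0.99 ± 0.62), miR-15a (-0.63 ± 1.54), miR-195 (-0.37 ± 0.58) and miR-497 (-0.03 ± 0.64, log2 difference, SE). Of these 5 relatives 0 passed the adjusted threshold, as did 0 of all 306 tested assays. All 5 had the lower mean in SCPN, against 54.9% of all tested assays. The median difference was -0.62, against -0.08 over all. In CPN replicate 3 the level of miR-322, -2.95, was above those of miR-15a (-3.33) and miR-497 (-3.94), and mean CPN levels of miR-15a (-4.27 ± 2.33) and miR-322 (-5.08 ± 2.00) differed by less than their SDs (n = 3 each, with 1 miR-15a value at the limit). The summed level of the 5 relatives was 5.05 to 5.49 in SCPN and 5.60 to 6.17 in CPN (log2).

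For the miR-351 seed, miR-125b-5p stood at 6.09, 5.18 and 5.08 in SCPN and at 7.14, 6.70 and 5.82 in CPN. It came 11.2 to 15.5 cycles before the rat-named miR-351 in SCPN and 12.3 to 14.2 cycles before it in CPN. The log2 differences were -1.11 ± 0.63 for miR-125b-5p and -0.91 ± 0.69 for miR-125a-5p (SE; limma adjusted p 0.79 and 0.80). Groups overlapped in both. Over the first 22 positions the RefSeq sequences of miR-351-5p and miR-125b-5p share 10 bases, the seed included.
miR-351-5p, minus strand, chrX:53053315-53053338: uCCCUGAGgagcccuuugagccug
miR-125b-5p, plus strand, chr9:41581940-41581961 and chr16:77646279-77646300: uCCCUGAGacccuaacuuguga

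**Figure D5:**
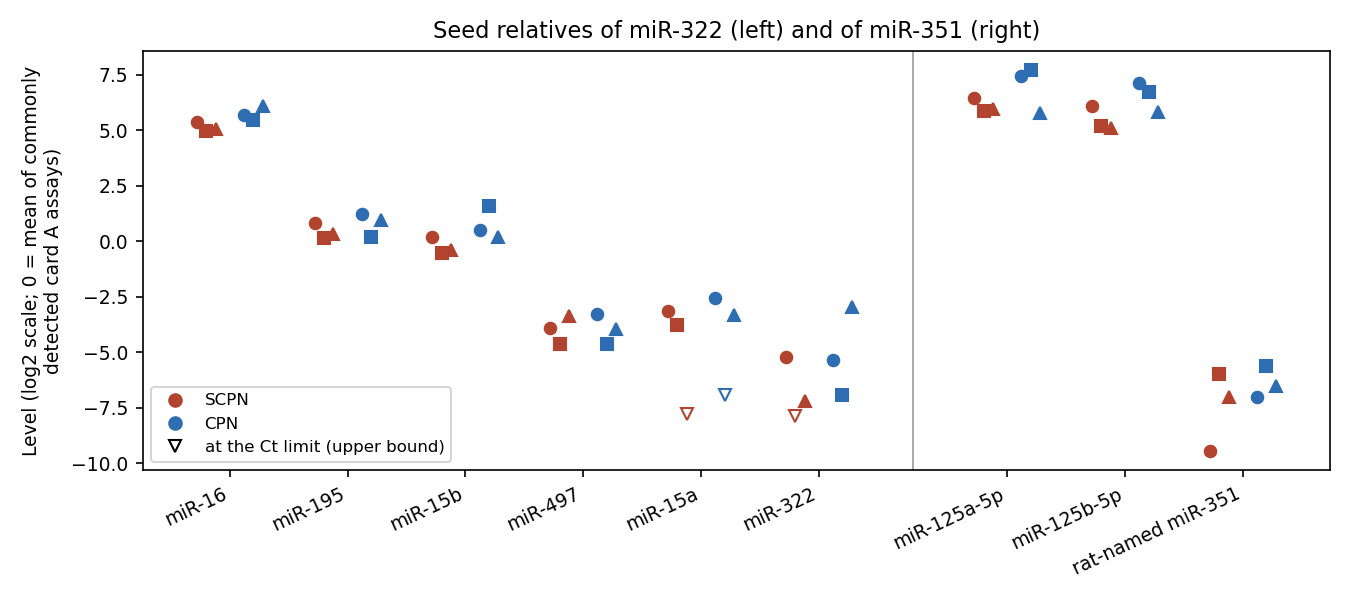
Levels (log2 scale, y axis; 0 is the average of card A assays measured in every sample) of assays with the miR-322 seed (left) and the miR-351 seed (right) in SCPN (red) and CPN (blue) samples; circles, squares and upward triangles are replicates 1, 2 and 3, and open triangles are upper bounds. MiR-16 lies near 5 to 6 and miR-125b-5p near 5 to 7, while miR-322 and the rat-named miR-351 lie at -2.95 or lower in every sample.

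Correlations between the cluster assays differed in sign, and 6 samples are too few to show whether they share a pattern. Between the 3 measured in every sample, Pearson's r over the 6 samples was -0.50 for the rat-named miR-351 and miR-322*, 0.31 for the rat-named miR-351 and miR-503*, and -0.41 for miR-322* and miR-503*. These are descriptions over samples that share their scaling. Against the mean level of these 3 assays, which ran from -5.13 to -4.03 in SCPN and -4.87 to -3.55 in CPN, the most alike of 221 other assays were miR-17, of the proliferation-linked miR-17/miR-92 group (r = 0.87, rho = 0.71), miR-28* (r = 0.83, rho = 0.89) and miR-449a (r = 0.82, rho = 0.71). They were picked for their r, so no test is given.

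Other X-linked microRNAs did not stand out either way. Of 68 such assays outside the cluster 28 were tested, 18 with a lower and 10 with a higher mean in SCPN. Over all tested assays 54.9% had the lower mean in SCPN. The median difference was -0.17, against -0.08 over all (log2). After adjustment 0 passed, and 2 had an unadjusted limma p under 0.05, against 8.17% of all tested assays.

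Neuronal markers were present in every sample. All 6 assays of the list (miR-124, miR-137, miR-138, miR-218, miR-9 and miR-9*) were detected in 6 samples. Their summed log2 level was 8.93 to 9.72 in SCPN and 8.12 to 9.77 in CPN. MiR-128, also neuronal and detected in 6 samples, is not in this list or sum (log2 difference -0.55, limma adjusted p 0.81). Of the 4 muscle assays, 2 were tested: miR-133a, lower in SCPN by its mean, and miR-206, higher, while miR-133b was detected in 0 samples and miR-1 in 2. The summed muscle level was -3.83 to -2.72 in SCPN and -2.07 to -1.86 in CPN. It separates the groups, as do miR-503* and the summed miR-15 and miR-16 relatives. Its part in the miR-503* value was not tested. Like the neuronal sum, the muscle sum joins assays of both cards, each with its own scale. Progenitor assays, 6 of 6 detected in every sample, summed to 7.45 to 7.95 in SCPN and 7.83 to 8.69 in CPN. Vascular and mesenchymal assays, 5 of 8 tested with miR-214 and miR-10b in 0 samples, summed to 2.23 to 4.53 in SCPN and 1.69 to 2.47 in CPN. Microglia and blood assays, 4 of 6 tested, summed to 0.75 to 2.80 in SCPN and 1.39 to 2.00 in CPN. Astrocyte assays, 3 of 3 tested, summed to 0.0062 to 0.24 in SCPN and 0.027 to 0.41 in CPN. Of the 2 oligodendrocyte assays, 1 was tested, and neither was detected in SCPN replicate 3 or CPN replicate 2. The highest sums in the other samples were -7.07 in SCPN and -5.57 in CPN.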

How the data were processed

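Per the series' design text, quantitative PCR used rodent TaqMan cards that follow miRBase 10. The deposited raw sheet holds Ct per well, and the submitters' normalised sheet is that Ct minus 1 number per sample and card. The authors' deposited ratio table equals, for 280 of 280 ratios within 0.1%, 2 raised to the CPN minus SCPN mean. The labels name no instrument, threshold or preamplification. Wells of an assay were averaged. In R 4.3.3, limma 3.58.1 (lmFit, then eBayes) gave two-sided p-values, which were adjusted by Benjamini-Hochberg over all 306 assays; the fit was tested on simulated data. No read depth exists. The number of samples and the Ct limit set the precision. All cluster assays were named, with seed relatives, the 3 assays most alike in pattern, and counts of X-linked assays. Members and lists were chosen with earlier results of these data known. Names were matched to RefSeq genes on GRCm38.p6, 1 gene for 468 of 584 assays. Deviations of same-numbered samples from their group means correlated at 0.70, 0.33 and 0.28 over 224 assays. On the data alone, the replicate number was therefore used as a block in an alternative fit, not in the main fit. The pair at 0.70, replicate 1 of each group, also had the lowest mean Ct of its group. Some samples with different numbers were as alike (0.41 for SCPN replicate 3 with CPN replicate 2, 0.26 for SCPN replicate 2 with CPN replicate 3). Alternatives changed scaling, Ct limit, filter, block, weights, moderation and the samples used.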

Additional observations from a re-analysis of the deposited data

How the results depend on the processing

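Over 12 to 17 alternatives each, no cluster assay passed an adjusted p of 0.05. MiR-503* (-1.67 to -0.64) and miR-322 (-3.10 to -0.43) kept their sign in every alternative in which they were tested. On the authors' scale the -0.43 of miR-322 rests on SCPN replicate 2 set to the limit. The authors' ratio of 0.476 uses the Ct of 36.93 in that sample. MiR-542-3p (-3.95 to -0.015) also stayed negative where tested. Values at the limit in both groups enter that difference, so its sign is not known. MiR-542-3p was measured in SCPN replicate 2, CPN replicate 1 and CPN replicate 3. Without any 1 of these, or with a lower Ct limit, it was detected in too few samples to be tested. The sign turned for the rat-named miR-351, to 0.14 with the authors' scaling, and for miR-322*, to -0.20 without CPN replicate 2. MiR-542-5p ran from -4.35 without a Ct limit to 0.088 with the authors' scaling, and from -2.13 to 0.079 without 1 sample. Its positive values (0.088, 0.023 without SCPN replicate 1 and 0.079 without CPN replicate 2) are upper bounds that rest on SCPN values set to the limit, so they do not show a turned sign. Without 1 sample miR-322* ran from -0.20 to 2.19. The cause was not tested. Over all assays 0 passed in every alternative except sample weights, where 1 did, and the range without 1 sample was 0 to 0. With the replicate block, 51 assays had an unadjusted p under 0.05 against 25 without it, 0 passed after adjustment, and the block changed no call. For miR-503* the adjusted p with the block was 0.32. With sample weights 2 cluster assays, miR-322 and miR-503*, reached an unadjusted limma p under 0.05, against 42 of all 306 tested assays. Without a limit, where missing values stand at the highest Ct, 39.8, miR-542-5p reached it, against 30 of all 324. Without CPN replicate 1 miR-503* reached it, against 32 of all 283. The planned test of 2 arms on 1 card was not run, because no hairpin of the cluster had both arms on 1 card with a Ct under 35 in all samples. The arm comparison of miR-322 ran from 2.17 to 4.01 over its 9 alternatives.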
